A study of Papio anubis with 8 samples.

Results

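Nuclear receptors are transcription factors that bind small fat-soluble ligands, or no known ligand in the case of the orphan receptors, and switch genes on or off through coactivator and corepressor proteins. Thyroid hormone acts on the developing brain through THRA and THRB, and the deiodinases set how much active hormone reaches them. Liver X receptors respond to oxysterols and peroxisome proliferator-activated receptors to fatty acids, while the orphan receptors of the COUP-TF and TLX families are known for patterning the forebrain and maintaining neural progenitors.

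The genes described are 31 members of this system, chosen by symbol: 21 nuclear receptors, the deiodinase DIO3 and 9 coregulators. All 31 had a single row in the deposited table of 37053 genes. The tissue is hippocampus from olive baboon (Papio anubis) fetuses near term, at 0.9 of gestation, and the study concerns maternal adiposity and leptin. The labels give 8 libraries of total RNA and no maternal group, age, sex or fetus for any of them, so no groups were compared and each value below belongs to a library named by its title (AMB3 to AMB10). The title of AMB3 has a different ending from the rest, and the labels do not explain it. All 8 samples share the tissue, species and library kit, and whether each came from its own fetus is not stated. The spread between libraries may therefore be partly technical.

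Total counts ran from 40404878 to 71648654 per library. Levels are in CPM, counts relative to a library size adjusted by the trimmed mean of M-values. The spread of a gene is summarised by its log2 range, log2 CPM in the top library less that in the bottom library. Intervals are 95% Poisson intervals and cover counting error only. Of the 31 members, 28 passed a filter on low counts that asks for about 10 counts in every library, and ESR2, PGR and VDR did not. The libraries differed in the markers of several cell types. The summed level of 6 genes listed as dentate granule markers, among them PROX1 and FIBCD1, ran from 109 CPM in AMB6 to 697 in AMB10 and 735 in AMB8. FIBCD1 alone stood at 366 CPM in AMB10 and 399 in AMB8, so the sum rests largely on it there. Whether FIBCD1 is specific to granule cells was not tested. DSP, also on the list, did not have this order and was highest in AMB7. DSP is named here after its values were seen. Myelin genes ran from 754 CPM in AMB5 to 4775 in AMB10, and genes of the meninges from 84.7 CPM in AMB8 to 462 in AMB4. In whole tissue, fewer cells of a type and less RNA per cell cannot be told apart. SLC17A7, the vesicular glutamate transporter of excitatory neurons, was at 804.5 to 1363 CPM in all libraries. TTR, the defining gene of choroid plexus, was at most 2.47 CPM.

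Among the members that passed the filter, PPARG, DIO3 and THRB had the largest log2 ranges, and THRA and MED1 the smallest. Of the 28 members that passed the filter, 12 had a log2 range of at least 1, a 2-fold difference between the extreme libraries, where 36.1% of all 16874 genes that passed did so. A range of 2 or more was reached by 3 members, PPARG, DIO3 and THRB, against 9.0% of all genes. The median range was 0.89 for the 28 members and 0.77 for all genes. These shares are near the background. With any 1 library left out, 9 to 12 members had a range of 1 or more, against 32.4% to 34.8% of all genes. Only 5 of the 12, THRB, DIO3, PPARG, RORA and ESR1, had one whichever library was left out, and the other 7 dropped under 1 without a single library.

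**Figure D1:**
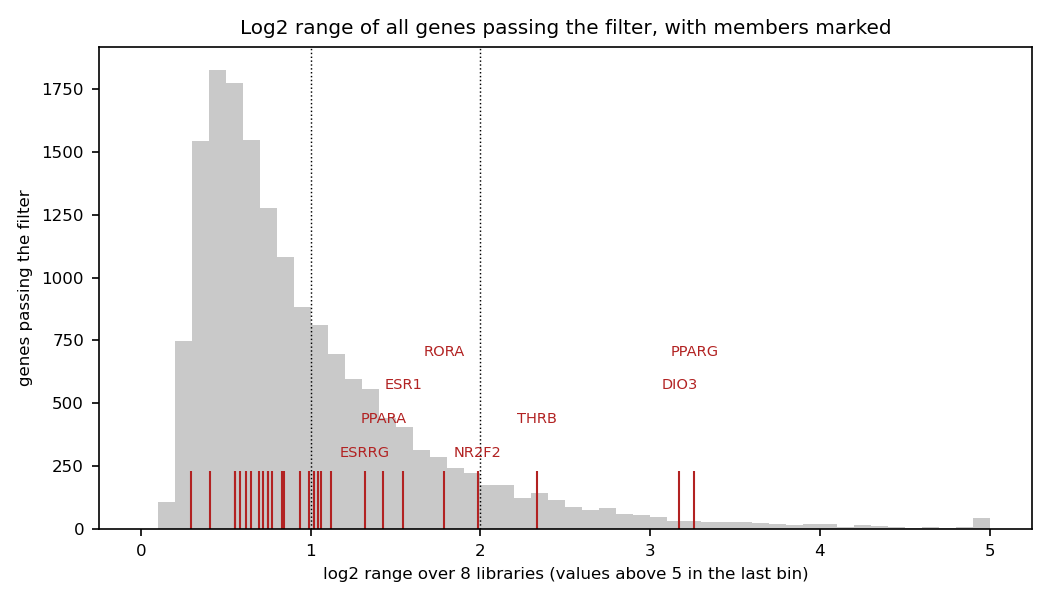
Histogram of the log2 range over 8 libraries (x axis) of the 16874 genes that passed the filter (y axis, number of genes), with a red tick for each of the 28 members and dotted lines at 1 and 2. Most members lie among the bulk of genes, and THRB, DIO3 and PPARG lie above 2.

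**Figure D2:**
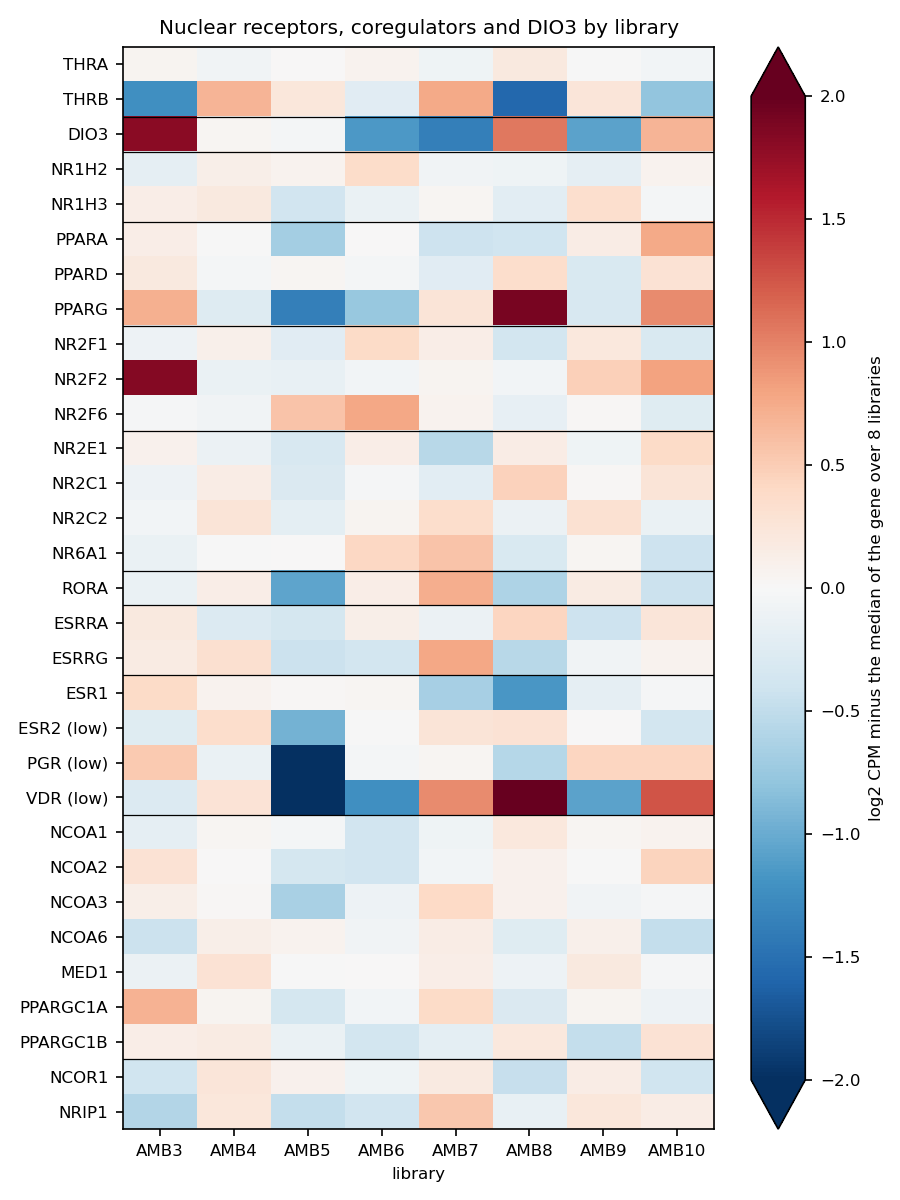
Log2 CPM of each of the 31 members minus its median over 8 libraries, by library (columns), with members ordered by role and lines between roles; colours are cut at -2 and 2, and members marked low did not pass the filter. THRB is low in AMB3, AMB8 and AMB10, where DIO3 and PPARG are high.

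The thyroid hormone receptors behaved unlike each other. THRA, the receptor found in most brain cells (chromosome 17, 47165816 to 47196517), was level: 520 CPM in AMB3, 475.5 in AMB4, 503 in AMB5, 521 in AMB6, 467 in AMB7, 572 in AMB8, 493 in AMB9 and 478 in AMB10. Its log2 range was 0.29, or 0.16 when AMB8 is left out, the highest library. THRB, the receptor known for later developmental and sensory roles (chromosome 2, 170229647 to 170595255), stood at 43.5 CPM in AMB3, 34.0 in AMB8 and 59.0 in AMB10, against 162 in AMB4, 119 in AMB5, 86.5 in AMB6, 171 in AMB7 and 120.5 in AMB9. The intervals of the 3 lowest libraries, of which the highest upper bound was 60.8 CPM, lay below those of the other libraries, of which the lowest bound was 84.1 CPM. The THRA to THRB ratio of counts, compared between libraries only, ran from 2.73 in AMB7 to 16.8 in AMB8.

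The spread in THRB was smaller when its counts were summed with those of a neighbour. LOC103882414, an uncharacterized protein-coding gene, lies on the same strand inside THRB and shares its 3′ end (chromosome 2, 170229647 to 170232291, 2645 bases). It held no count in AMB4 and AMB7, where the upper bounds of its intervals were 0.0576 and 0.0516 CPM. These were the libraries with the highest THRB. In the other 6 libraries it had 11.2 to 36.9 CPM, between 22.8% and 26.9% of the counts of both genes together. Summed over both genes, the locus stood at 59.5 CPM in AMB3, 45.3 in AMB8 and 76.5 in AMB10, and at 162 in AMB4, 156 in AMB5, 117 in AMB6, 171 in AMB7 and 157 in AMB9. The same 3 libraries were lowest, and the log2 range fell from 2.33 to 1.92, under the size of 2. With the sum, the THRA ratio ran from 2.73 in AMB7 to 12.7 in AMB8. This sum was chosen after seeing the data. How the deposited counts divide reads between overlapping genes is not given in the sources used here.

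**Figure D3:**
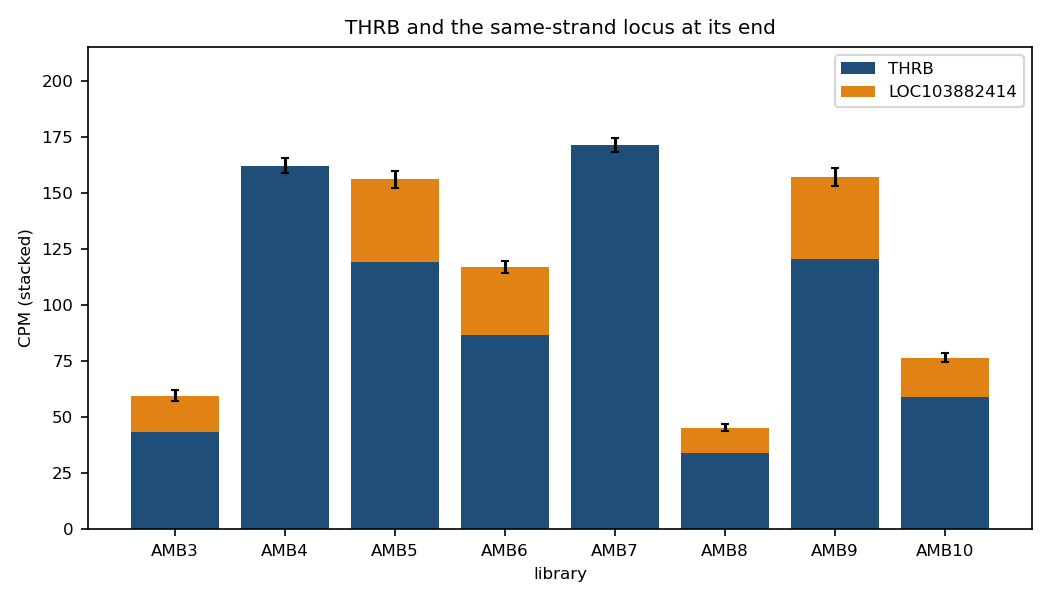
CPM of THRB (blue) and of LOC103882414 (orange), stacked, in each of the 8 libraries, with 95% Poisson intervals of the sum. LOC103882414 is at 0 in AMB4 and AMB7 only, and the sums in AMB3, AMB8 and AMB10 are at most 76.5 CPM against at least 117 in the other libraries.

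Markers of neuron types differed between the same libraries. MEF2C, a transcription factor of excitatory neurons, was lowest in AMB8 (123 CPM), AMB10 (140) and AMB3 (326), and reached 1199 to 1779 CPM elsewhere. Not all genes of the same list of 6 pyramidal neuron markers had this order: CAMK2A, a synaptic kinase, was highest in AMB8 (2356 CPM) and AMB10 (2254), against 897 to 1201 CPM elsewhere, and SLC17A7 was at 1247 and 1182 CPM there. The score of the whole list spanned only 0.35 on the log2 scale. MEF2C, CAMK2A and PROX1 are named here after their values were seen. PROX1, which dentate granule cells need to keep their identity, was highest in AMB8 (96.6 CPM), AMB10 (81.7) and AMB3 (49.0) and at 14.4 to 33.6 elsewhere. Their part in the THRB levels was not tested. Over 8 libraries THRB and THRA had Pearson r = -0.77 (exact permutation p = 0.0205, adjusted p = 0.119 over 12 relations) and Spearman rho = -0.81 (exact permutation p = 0.0218, adjusted p = 0.131). Without AMB7 and AMB8, the libraries farthest from the median of THRA, r was -0.44 (exact permutation p = 0.354, n = 6), over a narrower span of THRA and with fewer libraries. With any 1 library left out, rho lay between -0.964 and -0.714. Its adjusted p (exact permutation test) was 0.0167 without AMB10 and 0.0615 to 0.365 without any other single library. With total counts as library sizes, rho was -0.643 (adjusted p = 0.2885, exact permutation test). THRB and the myelin list had r = -0.07 (exact permutation p = 0.861) and rho = -0.02 (p = 0.977), with adjusted p-values of 0.899 and 0.977. Without AMB3 and AMB8, r was -0.37 (exact permutation p = 0.4625).

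Transcripts of thyroid hormone metabolism differed in how far they varied, with DIO3 at the wide end. DIO3, which inactivates thyroid hormone and is imprinted in mammals (chromosome 7, 4991596 to 4993671), was low in every library. It stood at 2.81 CPM in AMB3 (interval 2.31 to 3.37, 114 counts), 1.66 in AMB8 (1.36 to 1.996, 111 counts) and 1.27 in AMB10 (1.02 to 1.56, 91 counts). It was 0.797 CPM in AMB4, 0.7595 in AMB5, 0.332 in AMB6, 0.352 in AMB9 and 0.280 in AMB7 (0.171 to 0.432, 20 counts). The intervals of AMB10 and of AMB4 and AMB5 overlapped, so the third highest library is not set apart at this depth. The log2 range was 3.17, and 2.43 without AMB3. DIO2, which makes the active hormone inside the brain, had a log2 range of 0.75, with 165 CPM in AMB7, a median of 222 and 278 in AMB10. The DIO2 to DIO3 ratio of counts went from 74.2 in AMB3 to 689 in AMB6. Over the 8 libraries the deiodinases had r = 0.46 (exact permutation p = 0.250, adjusted p = 0.601) and rho = 0.33 (p = 0.428, adjusted p = 0.886), and without AMB3 and AMB7 r was 0.64 (exact permutation p = 0.176).

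Of 9 listed genes of thyroid hormone transport and metabolism, all of which passed the filter, 2 had a log2 range of at least 1. Of all genes, 36.1% did so. The 2 were CRYM, a cytosolic binding protein of thyroid hormone, at 154 CPM in AMB7 and 434 in AMB3, and DIO1, at 0.297 to 0.689 CPM. SLC7A5, an amino acid carrier that also moves thyroid hormone, lay between 148 and 189 CPM. Of 7 tested genes known to respond to thyroid hormone, 3 had such a range (MBP, PVALB and HR), against the same 36.1% of all genes. MBP also belongs to the myelin list, and ran from 269 CPM in AMB3 to 1695 in AMB10. HR, a corepressor of thyroid hormone receptors that the hormone induces in rodent brain, is named here after its values were seen. HR was lowest in AMB3 (5.39 CPM), AMB8 (6.58) and AMB10 (6.77), the libraries of lowest THRB, and between 10.1 and 21.8 CPM elsewhere. NRGN, the calmodulin-binding neurogranin, ranged from 556 CPM in AMB3 to 948 in AMB5, and RELN, the secreted reelin, from 184 in AMB8 to 342 in AMB3.

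Retinoid X receptors are the partners with which THRA, THRB and the lipid receptors bind DNA. RXRB lay between 77.7 and 111 CPM and RXRA between 18.1 and 33.7. RXRG, the form restricted to few brain cell types, was highest in AMB8 (18.9 CPM), AMB10 (15.1) and AMB3 (12.03) and spanned 2.46 to 7.43 CPM in the rest, a log2 range of 2.92.

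Among lipid-sensing receptors PPARG stood apart from its paralogs. PPARG, best known as the regulator of fat cell formation (chromosome 2, 52337329 to 52483431), reached 7.36 CPM in AMB8 (interval 6.72 to 8.04), followed by AMB10 with 3.82 (3.38 to 4.30) and AMB3 with 3.22 (2.70 to 3.83). It was 2.34 CPM in AMB7, 1.64 in AMB4, 1.56 in AMB9, 1.14 in AMB6 and 0.7365 in AMB5 (0.504 to 1.04, 32 counts). AMB8 lay above every other library beyond counting error, while AMB10 and AMB3 overlapped each other. The log2 range of 3.26 was the largest among the 28 tested members, and fell to 2.32 without AMB8. PPARA, which drives fatty acid oxidation, was 1.40 CPM in AMB5, 2.27 at the median and 3.84 in AMB10, a range of 1.43, or 0.83 when AMB10 is left out. PPARD, the most widely expressed form, ran from 42.2 CPM in AMB9 to 66.2 in AMB8, and its highest libraries were AMB8, AMB10 and AMB3 (59.8 CPM).

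PPARA was set against the astrocyte list because astrocytes oxidize fatty acids in the brain. The pair had r = 0.75 (exact permutation p = 0.0297, adjusted p = 0.119) and rho = 0.67 (p = 0.0831, adjusted p = 0.249). Without AMB5 and AMB10, r was 0.28 (exact permutation p = 0.601, n = 6), over a narrower span of PPARA and with fewer libraries. With any 1 library left out, rho lay between 0.50 and 0.847. Of 9 tested targets of these receptors, 3 had a log2 range of at least 1 (PDK4, CPT1A and ANGPTL4), where 36.1% of all genes did. ANGPTL4, an inhibitor of lipoprotein lipase, was at 2.89 CPM in AMB9 and 11.7 in AMB6, and was neither high in AMB8 (7.34 CPM) nor low in AMB5 (7.36 CPM), the extreme libraries of PPARG. HADHA and ACADVL, enzymes of mitochondrial fatty acid oxidation, ranged from 81.0 to 119 and from 57.4 to 77.4 CPM. FABP7, a fatty acid carrier of radial glia and astrocytes, ranged from 111 to 199 CPM.

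The liver X receptors were even. NR1H2, the widely expressed form, lay between 30.3 CPM in AMB9 and 44.5 in AMB6, a log2 range of 0.55 (0.29 when AMB6 is left out). NR1H3, the form of macrophages and liver, was at 0.368 to 0.629 CPM from 16 to 36 counts, and the intervals of its extremes, AMB5 (0.210 to 0.598) and AMB9 (0.407 to 0.928), overlapped. A difference between libraries was not detectable at this depth. Set against the microglia list, NR1H3 had r = 0.30 (exact permutation p = 0.471, adjusted p = 0.706) and rho = 0.19 (p = 0.665, adjusted p = 0.886), and r = 0.56 (exact permutation p = 0.247) without AMB5 and AMB9. Of their 8 tested targets, 5 had a range of 1 or more, where 36.1% of all genes did. These 5 were MYLIP, ABCG1, ABCA1, APOE and SREBF1. MYLIP, which degrades the low density lipoprotein receptor, was lowest in AMB8 (12.8 CPM), AMB10 (16.9) and AMB3 (26.1) and highest in AMB7 (66.4). ABCG1 was lowest in AMB10 (14.8 CPM) and AMB8 (19.1). ABCA1 had the opposite order, highest in AMB10 (22.0 CPM), AMB8 (19.8) and AMB3 (17.0). APOE, the main lipoprotein of the brain, went from 203 CPM in AMB7 to 455 in AMB6, and SCD, a fatty acid desaturase, from 350 CPM in AMB7 to 658 in AMB3. Astrocyte markers, which share a source with APOE, were also lowest in AMB7 (2805 CPM summed over 6 genes), and their part was not tested.

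**Figure D4:**
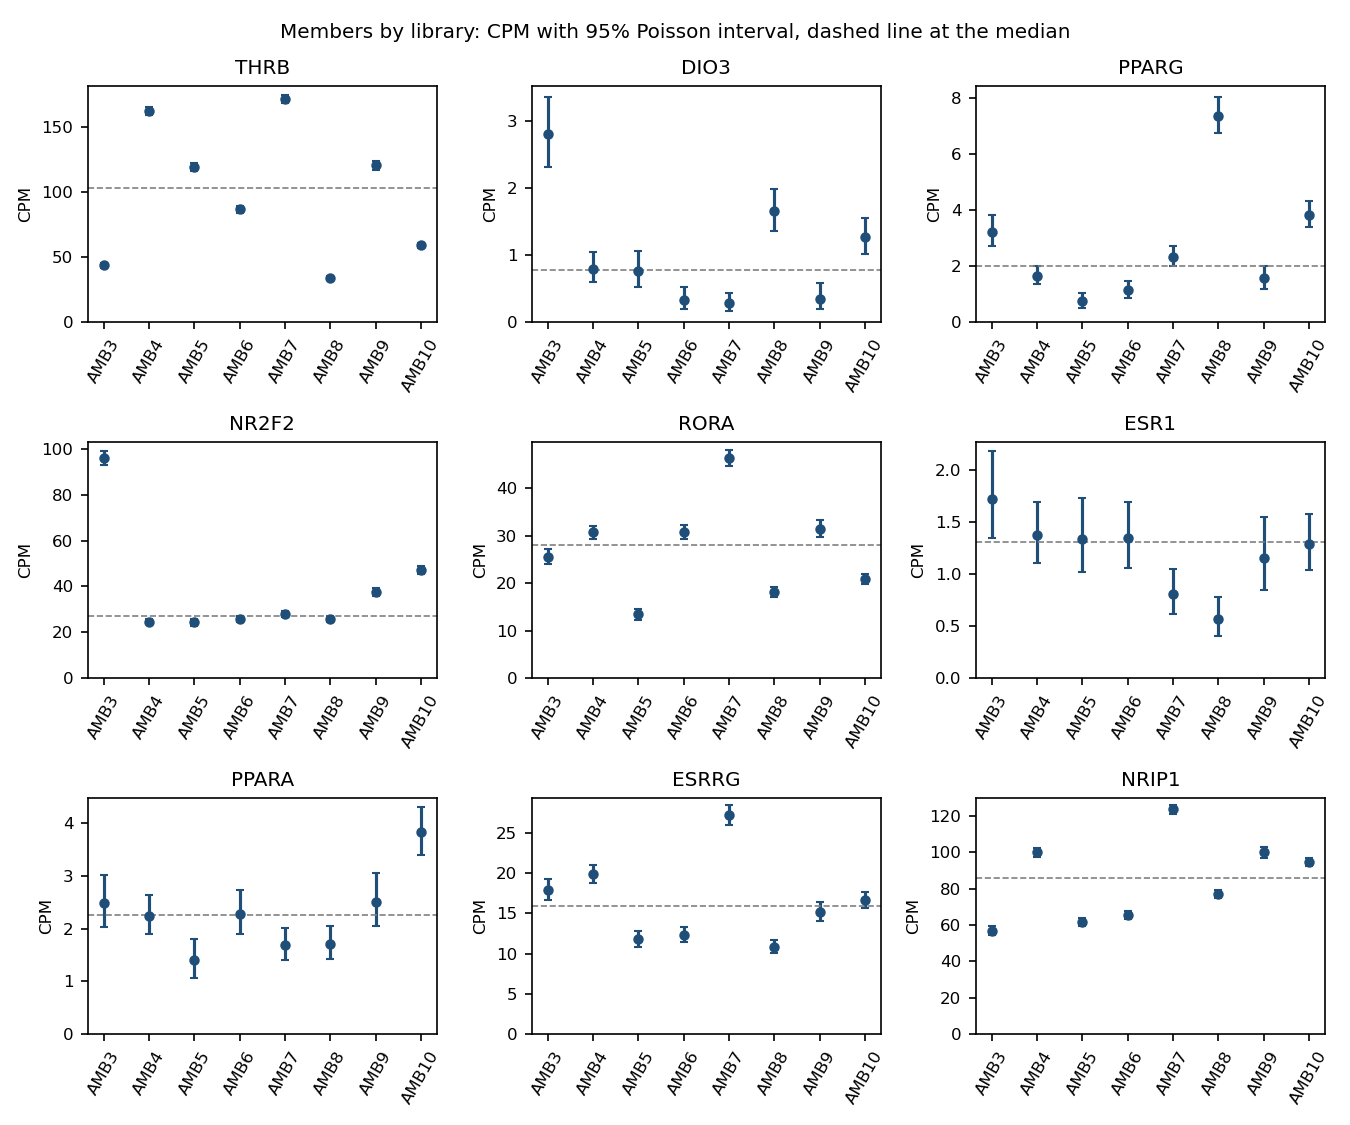
CPM (y axes, from 0) of 9 members with a log2 range of at least 1 in each of the 8 libraries (x axes), with 95% Poisson intervals and a dashed line at the median. PPARG is highest in AMB8, NR2F2 and DIO3 in AMB3, and RORA, ESRRG and NRIP1 in AMB7.

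COUP-TF receptors differed by paralog. NR2F1, which patterns the cortex and hippocampus (chromosome 5, 86530984 to 86542520), lay between 107 CPM in AMB8 and 180 in AMB6, with AMB10 next to lowest at 112 CPM. NR2F2, the form of caudal interneurons and of veins (chromosome 7, 92593044 to 92606313), was at 96.1 CPM in AMB3 (interval 93.1 to 99.1), 47.1 in AMB10 and 37.5 in AMB9, and between 24.3 and 28.0 in the other 5 libraries. The log2 range of 1.98 fell to 0.96 without AMB3, the only library with more than 47.1 CPM. The NR2F1 to NR2F2 ratio of counts was 1.34 in AMB3, 2.37 in AMB10 and 4.16 to 6.98 elsewhere. The paralogs had r = -0.19 (exact permutation p = 0.682, adjusted p = 0.899) and rho = 0.10 (p = 0.840, adjusted p = 0.916), and without AMB6 and AMB8 r was -0.27 (exact permutation p = 0.653).

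NR2F2 and the interneuron list had r = 0.08 (exact permutation p = 0.8315, adjusted p = 0.899) and rho = -0.21 (p = 0.619, adjusted p = 0.886), and without AMB3 and AMB10 r was 0.27 (exact permutation p = 0.460). The summed interneuron genes were at 1037 CPM in AMB3, close to 1026 in AMB6. The 5 genes of the meninges summed to 436 CPM in AMB3, 462 in AMB4 and 449 in AMB7. Within that list the collagen COL1A1 was highest in AMB4 (129.6 CPM), while DCN, the matrix protein decorin, was highest in AMB3 (137 CPM), against 42.8 in AMB4 and 62.0 in AMB7. Endothelial genes summed to 187 CPM in AMB3 and 197 in AMB4. The part of these cell types in the NR2F2 levels was not tested. NR2F6, a repressive relative, was at 27.9 CPM in AMB6, 24.1 in AMB5 and 13.8 to 17.2 elsewhere, a log2 range of 1.02.

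NR2E1, the TLX receptor that maintains neural stem cells (chromosome 6, 155380105 to 155401134), was correlated with the radial glia list. It stood at 8.31 CPM in AMB7, 9.78 in AMB5, 11.3 in AMB4, 11.6 in AMB9, 13.0 in AMB3, 13.4 in AMB6, 13.5 in AMB8 and 15.9 in AMB10. The score of the list, the median over its 6 tested genes of log2 CPM minus the median of the gene, rose from -0.50 in AMB7 and -0.21 in AMB5 to 0.235 in AMB10 and 0.34 in AMB8. The relation had r = 0.94 (exact permutation p = 0.000422, adjusted p = 0.00506 over 12 relations) and rho = 0.98 (exact permutation p = 0.000397, adjusted p = 0.00476). Without AMB7 and AMB10 r was 0.94 (exact permutation p = 0.00972, n = 6). It was the only relation of the 12 with an adjusted p under 0.05. The adjusted p for rho was 0.0548 with library sizes taken as total counts, 0.0675 without AMB5 and 0.123 without AMB7, with rho of 0.905, 0.929 and 0.893. TNC, a matrix protein of radial glia, went from 128 CPM in AMB7 up to 318 in AMB8. NES, the progenitor filament nestin, was at 29.6 and 91.6 CPM in these libraries. VIM, another filament of radial glia, ran from 167.5 CPM in AMB5 to 244 in AMB3. PAX6 went from 8.41 CPM in AMB7 to 24.6 in AMB8. Not all genes of the list had the order of NR2E1. HOPX was at 119 CPM in AMB5 and 102 in AMB10, and FABP7 at 140 and 137 CPM in these libraries. HOPX and PAX6 are named here after their values were seen. Astrocytes share several of these genes, and the astrocyte list was likewise lowest in AMB7 and highest in AMB10. The list of oligodendrocyte precursor genes was also lowest in AMB7 and highest in AMB10. Neither list was among the 12 relations for NR2E1, so whether the relation is particular to radial glia was not tested.

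**Figure D5:**
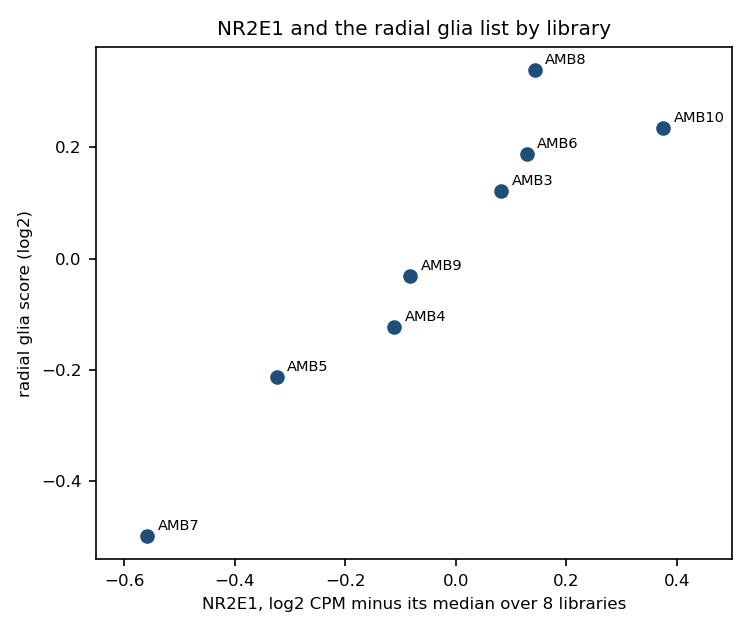
NR2E1, as log2 CPM minus its median (x axis), against the score of the radial glia list (y axis, log2), 1 point per library. AMB7 is lowest on both axes, and AMB8 and AMB10 are the 2 highest on both.

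The testicular orphan receptors and NR6A1 had ranges under 1. NR2C2 (TR4) ran from 95.4 CPM in AMB5 to 140 in AMB7, and NR2C1 (TR2) from 10.8 CPM in AMB5 to 18.2 in AMB8. NR6A1, the germ cell nuclear factor, ran from 5.09 CPM in AMB10 to 10.2 in AMB7, a log2 range of 0.99, just under the size of 1, as NR2F6 with 1.02 was just over it.

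RORA, an orphan receptor of cerebellar and thalamic neurons that also drives clock genes (chromosome 7, 127797880 to 128537097), was at 46.3 CPM in AMB7 and 13.4 in AMB5. AMB8 had 18.1 CPM, AMB10 20.8 and AMB3 25.5, and AMB4, AMB6 and AMB9 had 30.7, 30.8 and 31.4 CPM. The log2 range was 1.79, or 1.23 when AMB7 is left out. Its paralog RORB, a marker of layered cortical neurons, spread much further, from 17.4 CPM in AMB8 to 267.5 in AMB7, with AMB3 at 21.2 and AMB10 at 21.8. RORA and the dentate granule list had r = -0.37 (exact permutation p = 0.364, adjusted p = 0.650) and rho = -0.24 (p = 0.582, adjusted p = 0.886). Without AMB5 and AMB7, the extremes of RORA, r was -0.98 (exact permutation p = 0.00417, n = 6), which is not adjusted. With any 1 library left out, rho lay only between -0.25 and -0.107, so the value of -0.98 rests on leaving out both libraries.

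Estrogen-related receptors are orphan receptors that act with PPARGC1A on genes of mitochondrial energy supply. ESRRA ran from 20.6 CPM in AMB9 to 36.9 in AMB8, with AMB10 at 32.5 and AMB3 at 31.4. The end of ESRRA overlaps TRMT112 on the opposite strand by 189 bases, and reads there cannot be assigned without strand, whose use in counting is not stated. ESRRG was at 27.2 CPM in AMB7, 19.9 in AMB4, 17.9 in AMB3, 16.7 in AMB10, 15.2 in AMB9, 12.4 in AMB6, 11.8 in AMB5 and 10.9 in AMB8, a log2 range of 1.32, or 0.87 when AMB7 is left out. PPARGC1A, the coactivator, was highest in AMB3 (52.7 CPM) and AMB7 (42.4), and between 25.3 and 33.6 elsewhere. It had r = 0.71 with ESRRG (exact permutation p = 0.0507, adjusted p = 0.152) and rho = 0.76 (p = 0.0368, adjusted p = 0.147), and r = 0.76 (exact permutation p = 0.0931) without AMB3 and AMB7. With ESRRA it had r = 0.05 (exact permutation p = 0.899, adjusted p = 0.899) and rho = -0.14 (p = 0.752, adjusted p = 0.902), and without AMB3 and AMB7 r was -0.30 (exact permutation p = 0.493). None of 6 tested partners and targets had a log2 range of at least 1, against 36.1% of all genes. They included ATP5F1B of the ATP synthase at 716 to 922 CPM and IDH3A of the citric acid cycle at 79.0 to 147 CPM. SOD2, the mitochondrial superoxide dismutase, also among them, was at 22.2 to 39.3 CPM. PPARGC1B, the sister coactivator, ran from 14.3 CPM in AMB9 to 24.4 in AMB10.

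Receptors for sex steroids and vitamin D were scarce. ESR1, the main estrogen receptor (chromosome 6, 110324713 to 110771780), ran from 1.72 CPM in AMB3 down to 0.567 in AMB8 (interval 0.401 to 0.779, 38 counts), with a median of 1.31. AMB7 was next to lowest at 0.811 CPM and its interval (0.616 to 1.05) overlapped that of AMB8. ESR1 and the dentate granule list had r = -0.38 (exact permutation p = 0.379, adjusted p = 0.650) and rho = -0.21 (p = 0.619, adjusted p = 0.886), and without AMB7 and AMB8 r was 0.23 (exact permutation p = 0.594). ESR2, the other estrogen receptor, had 0.138 to 0.391 CPM from 6 to 26 counts, and a pseudogene inside it on the same strand, LOC101009879, had 3.26 to 5.33 CPM. PGR, the progesterone receptor, had 0.0921 CPM in AMB5 (4 counts, interval 0.0251 to 0.236) and 0.373 to 0.837 elsewhere. VDR, the vitamin D receptor, had 104 counts in AMB8 (1.55 CPM, interval 1.27 to 1.88), 56 in AMB10 (0.7815 CPM, 0.590 to 1.01) and 44 in AMB7 (0.616 CPM, 0.447 to 0.826). It had 24 counts or fewer in the other libraries and 2 in AMB5. AMB8 lay above every other library beyond counting error, as for PPARG. ESR2, PGR and VDR did not pass the filter. Their log2 ranges all reached 1, as did those of 42.8% of all genes when no filter was applied. For ESR2 the intervals of the extremes, AMB5 (0.0507 to 0.301) and AMB4 (0.253 to 0.576), overlapped. Its extremes are therefore not set apart at this depth. Of the enzymes and receptors listed beside them 2 were tested, SRD5A1, a steroid reductase, at 68.0 to 85.2 CPM and GPER1, a membrane receptor for estrogen, at 5.95 to 12.4 CPM.

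Among the coregulators, 3 of 9 tested had a log2 range of at least 1, NCOA3, PPARGC1A and NRIP1, and none reached 2. Of all genes, 36.1% and 9.0% did so, and the 3 of 9 is near that background. NCOA1, the p160 coactivator SRC-1, ran from 156 CPM in AMB6 to 234 in AMB8. LOC103876796, which overlaps it on the opposite strand by 484 bases, had 84.0 to 139.9 CPM. NCOA2 ran from 82.2 CPM in AMB6 to 146 in AMB10. NCOA3 was at 30.1 CPM in AMB5 and 43.8 to 62.0 elsewhere, a log2 range of 1.04, or 0.50 when AMB5 is left out. NCOA6 was at 105 CPM in AMB10, 108 in AMB3 and 123.3 in AMB8, and between 139 and 161 in the other libraries. MED1, the Mediator subunit that receptors contact, varied from 60.2 to 79.7 CPM, the smallest log2 range (0.40) after THRA among the 28 members. None of 10 listed partners of these coactivators had a log2 range of at least 1, against 36.1% of all genes. PRMT1, a protein arginine methyltransferase, ran from 115 to 140 CPM, KMT2D, a histone methyltransferase, from 84.3 to 126, MED24 of the Mediator from 80.7 to 114 and KAT2B, a histone acetyltransferase, from 14.9 to 27.1.

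NCOR1, the corepressor that unliganded thyroid hormone receptors recruit (chromosome 17, 15666183 to 15852608), was lowest in AMB8 (177 CPM), AMB10 (185) and AMB3 (185.5), against 229 in AMB6, 259.5 in AMB5, 271 in AMB9, 275 in AMB7 and 288 in AMB4. Its 3 lowest libraries were those of THRB, at a smaller log2 range of 0.70. TBL1X, a subunit of the NCOR1 complex, was at 12.2 CPM in AMB8 and 33.1 in AMB3. It was the only gene of 6 in the corepressor list with a log2 range of at least 1, against 36.1% of all genes. Its paralog TBL1XR1 ran from 64.5 to 101.3 CPM and SIN3A, a scaffold of deacetylases, from 46.5 to 57.4. NRIP1, the corepressor RIP140, was at 124 CPM in AMB7 and 56.8 in AMB3, with 61.5 in AMB5, 65.2 in AMB6, 76.9 in AMB8, 94.4 in AMB10, 99.8 in AMB4 and 99.9 in AMB9.

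The order of libraries was shared by some members and not by others. AMB8 and AMB10 were the 2 highest libraries for 7 of 28 tested members, namely ESRRA, NCOA1, NR2C1, NR2E1, PPARD, PPARG and PPARGC1B, against 11.9% of all genes. They were the 2 lowest for 4 members, NCOR1, NR2F1, NR2F6 and NR6A1, against 11.6% of all genes. AMB5 was lowest for 9 of 28 members against 17.0% of all genes, and highest for none against 16.4%. AMB7 was highest for 8 members against 15.5%. This pair and these orders are a selection from many possible ones, made with earlier results of these data known. Orders of other libraries fell on either side of the background. AMB10 was lowest for 10.7% of members against 15.9% of all genes, and AMB8 was lowest for 17.9% against 12.3%. All these counts describe the order of libraries and were not tested. By Spearman's rho over the 8 libraries, as a description without a test because each is the best of 27 candidates that share libraries and scaling, THRB was most like NCOR1 and RORA most like NR2C2 (rho 0.952 for each pair).

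Nuclear receptors outside the 31, were listed as 24 further genes. Of 15 that passed the filter, 10 had a log2 range of 1 or more, of which 6 reached 2, against 36.1% and 9.0% of all genes. RARB, a retinoic acid receptor, went from 1.94 CPM in AMB8 to 80.4 in AMB7. NR1D2, a clock repressor, lay between 61.8 and 105.5 CPM, and NR4A3, an activity-induced receptor, between 25.4 CPM in AMB7 and 96.8 in AMB8.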

How the data were processed

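The deposited table holds estimated counts per RefSeq gene and normalized log2 values for each of the 8 libraries, per the file headers. Of tools, the submitters' processing notes list DESeq and no version. No source used here names the aligner, the counter, its strand setting or the genome build. Per the labels' protocols, a strand-specific kit was used on 25 ng of RNA. All 31 members matched the RefSeq gene table of Panubis1.0 by gene identifier, with equal start and end in 31, and coordinates are those of the deposited table. Total counts per library were 40404878 to 71648654.

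Here the estimated counts were rounded, filtered with filterByExpr of edgeR 4.0.16 (R 4.3.3, minimum count 10, no groups) with library sizes adjusted by trimmed means of M-values over the 16874 genes kept. Log2 CPM used a prior count of 2. The deposited normalized log2 values served as an alternative. Members passing the filter are those with counts in every library, so a gene near 0 in some libraries is left out. A pathway or marker list has as score the median over its tested genes of log2 CPM minus the gene's median. Relations are Pearson's r and Spearman's rho over 8 libraries, with exact 2-sided permutation p-values over 40320 pairings and Benjamini-Hochberg adjustment over 12 relations. No library group was formed. The range calculation was tested on simulated data with known folds. Alternatives were other library sizes, DESeq2 1.42.0 size factors, prior counts of 0.5 and 5, other filters, unrounded counts and each library left out.

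The members and lists were chosen with earlier results of these data known. Named genes are all members and, per list, up to 3 of highest median CPM and the 1 of largest log2 range, and others are named as chosen after seeing values or because a count of 5 or fewer rests on them. Of 162 other listed genes 153 had a row under their symbol, and the rest are not analysed here.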

Additional observations from a re-analysis of the deposited data

Results flagged for a closer look

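Of 103 genes checked, 2 had a library farther from the others than Dixon's 95% critical value of 0.526 allows over 8 libraries, where chance gives about 1 in 20. PGR was at 0.0921 CPM in AMB5, from 4 counts, and its next library was at 0.373 CPM. AQP1, the water channel of choroid plexus, was at 0.492 CPM in AMB3, against 4.39 CPM in the next library and 22.1 in the highest.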

How the results depend on the processing

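The number of members with a log2 range of at least 1 was 12, and the share of all genes was 36.1%. It was 12 to 13 under other library sizes, values, prior counts and rounding, where the share was 34.9% to 36.7%. With no filter it was 15 of 31 (share 42.8%), and with a minimum count of 30 it was 11 (share 30.4%). When 1 library was left out it was 9 (without AMB7) to 12, with a share of 32.4% to 34.8%. The number with a range of at least 2 was 3 (share of all genes 9.0%), and 4 with total counts as library sizes (NR2F2 joined, share 9.1%). It was 5 of 31 with no filter on low counts (share 15.9%) and 2 with a minimum count of 30 (share 6.17%). With THRB summed with its neighbour it was 2 (share 8.99%). When 1 library was left out it was 2 to 3, with a share of 7.57% to 8.53%. Leaving out 1 library shrank the range of 7 of 28 members by over 1.5 times.

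The rho of NR2E1 and the radial glia list was 0.976, and 0.905 with total counts as library sizes, and 0.893 to 1.0 when 1 library was left out. With 1 library left out, relations without a call changed sign: rho lay between -0.143 and 0.393 for NR2F1 and NR2F2, -0.607 and 0.107 for NR2F2 and interneurons, -0.357 and 0.179 for THRB and myelin, -0.536 and 0.071 for PPARGC1A and ESRRA, and -0.464 and 0.179 for ESR1 and dentate granule genes. The causes were not tested. No paired analysis was possible because the labels give no groups. Depth limits NR1H3, DIO3, ESR2, PGR, VDR and DIO1, whose lowest libraries held 16 counts or fewer.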
